A study of Mus musculus with 4 samples.

Results

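ST2-expressing regulatory T cells are the Foxp3-positive CD4 T cells that also carry transcripts of Il1rl1, the gene of the IL-33 receptor ST2. Here they were the cells with at least 1 Foxp3 and at least 1 Il1rl1 UMI (unique molecular identifier, a count of distinct captured molecules). They numbered 180 of the 14217 cells kept, 164 of 7135 in lung with tumors and 16 of 7082 in normal lung. They were set against reference Tregs of the same library, which had Foxp3, no Il1rl1 and a UMI of Klrg1 or Tnfrsf9, genes of activated Tregs, and which numbered 787 and 44. The remaining 196 and 146 Foxp3 cells, without Il1rl1, Klrg1 or Tnfrsf9, are called other Foxp3 cells.

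The mice were C57BL/6. In the tumor group TC1 cells, a transplantable mouse lung epithelial tumor line, were given through the tail vein and lungs were taken 3 weeks later, while the normal group was of matching age and received no tumor. No other allele, transgene or agent is named for either group. Live CD4+ cells were sorted from digested, perfused lung, so Tregs were not sorted as such, and each tissue gave 1 gene expression library and 1 T cell receptor (TCR) library. The kept cells held 31921001 UMIs in tumor lung and 28084248 in normal lung. The number of mice behind a suspension is not given in the sources used here, and with 1 library per tissue no value below has a replicate check or a p-value. Intervals are 95% intervals of counting error only, and the UMIs of a cell and the cells of a clone are not independent.

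As background, IL-33 is an alarmin released by damaged epithelium and stroma. It binds ST2, which pairs with the accessory protein encoded by Il1rap and signals through MyD88, IRAK kinases and TRAF6 to NF-kappa-B. ST2 marks a tissue-resident Treg population known from lung, fat and gut that depends on transcription factors such as GATA3, and amphiregulin, the product of Areg, is the growth factor through which such Tregs act on epithelial repair.

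The receptors of these cells show which ST2 Tregs descend from the same T cell. Both receptor chains were known for 130 of the 164 tumor ST2 Tregs, which fell into 124 clones, and only 5 clones held 2 or more of them. The CDR3 sequences of those 5 clones are shown because they are the direct record of ST2 Tregs that share an ancestor. Each is given 5′ to 3′ as deposited, with the junction in capitals, that is, the bases left after the start shared by at least 50% of contigs with the same V gene and the end shared by at least 50% of those with the same J gene.
Clone 1, beta chain, TRBV5 and TRBJ2-7: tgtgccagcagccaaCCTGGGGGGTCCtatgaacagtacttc
Clone 1, alpha chain, TRAV7-4 and TRAJ37: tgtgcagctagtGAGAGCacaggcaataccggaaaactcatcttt
Clone 2, beta chain, TRBV14 and TRBJ2-5: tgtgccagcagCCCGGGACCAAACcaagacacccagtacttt
Clone 2, alpha chain, TRAV13D-2 and TRAJ27: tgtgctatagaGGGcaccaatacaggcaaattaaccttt
Clone 3, beta chain, TRBV1 and TRBJ1-2: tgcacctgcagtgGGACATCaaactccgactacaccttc
Clone 3, alpha chain, TRAV4-4-DV10 and TRAJ32: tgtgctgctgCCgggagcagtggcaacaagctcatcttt
Clone 4, beta chain, TRBV3 and TRBJ1-3: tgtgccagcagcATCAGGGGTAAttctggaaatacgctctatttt
Clone 4, alpha chain, TRAV8-1 and TRAJ7: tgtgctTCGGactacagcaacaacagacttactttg
Clone 5, beta chain, TRBV19 and TRBJ2-4: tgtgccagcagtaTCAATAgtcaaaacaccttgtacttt
Clone 5, alpha chain, TRAV7D-4 and TRAJ37: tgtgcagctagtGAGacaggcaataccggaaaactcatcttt
The 5 beta chains used 5 different V genes and their junctions ran from 6 to 13 bases. Clones 1 and 5 shared the alpha joining segment TRAJ37, but their junctions and beta chains differed.

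Il1rl1 itself (ENSMUSG00000026069, chromosome 1, 40404864 to 40465418, GRCm38.p6) was sparse in the cells it defines. Of the 164 tumor ST2 Tregs, 103 had 1 Il1rl1 UMI, 39 had 2 and 22 had 3 or more, with a highest count of 6, and in the normal library 7, 7 and 2 of 16 cells did, with a highest count of 4. These are the cells just inside the threshold, and the cells just outside it had 0. With most members at 1 UMI, the reference can hold ST2-expressing cells whose Il1rl1 was missed. ST2 Tregs were also the deeper cells, with a median of 5243.5 UMIs per cell against 4782 in reference Tregs and 3921 in other Foxp3 cells of the tumor library, and 5506 against 4226.5 and 3887 in the normal library.

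An Il1rl1 UMI was found in 164 of 1147 Foxp3 cells of the tumor library (14.3%, exact binomial interval 12.3 to 16.5) and in 16 of 206 of the normal library (7.77%, 4.50 to 12.3). After every cell was thinned to 2400 UMIs the shares were 8.79% (7.03 to 10.8) and 4.70% (1.91 to 9.44), so the intervals of the libraries overlapped. The background, read in cells with Ccr7 and no Foxp3 UMI, which should lack the receptor, was 6 of 4849 cells (0.124%) and 2 of 6194 cells (0.0323%) at median depths of 4176 and 3939 UMIs, against 4725 and 3995.5 in Foxp3 cells. Thinned, it was 0.0947% and 0 of 5357 cells, with an exact binomial upper bound of 0.0688%. An Il1rl1 UMI in a Foxp3 cell was thus far above the level in cells that should lack it in both libraries.

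The label was read against genes outside the rule. Tumor ST2 Tregs carried Ikzf2, which encodes the Treg factor Helios, at 670 CPM (UMIs per 1000000 UMIs of the summed cells) against 635 in reference Tregs, and Ctla4, the checkpoint receptor, at 1973 against 1897. The T cell genes Cd3e and Cd4 stood at 1122 and 215 CPM against 1264 and 213. Foxp3, the lineage factor that the rule asked of both groups, stood at 831 and 821 CPM. Klrg1, an inhibitory lectin receptor of terminally differentiated Tregs, had a UMI in 104 of 164 ST2 Tregs (63.4%, 55.5 to 70.8), Tnfrsf9, the costimulatory receptor 4-1BB, in 146 (89.0%), and at least 1 of both in 159. The rule asked for Klrg1 or Tnfrsf9 only in the reference, where Klrg1 was seen in 374 of 787 cells (47.5%, 44.0 to 51.1).

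Markers of other cells were set beside these values. Red cell markers had 0 UMIs in tumor ST2 and reference Tregs, and mast cell and basophil markers had 1 UMI in ST2 Tregs, with 9 of 10 genes at 0. Group 2 innate lymphoid cells (ILC2), which also use ST2, have Il5, Il13, Hes1 and Arg1 as markers, and all 4 were at 0. The summed level of the 8 ILC2 genes outside the rule and T cell genes was 42.8 CPM (30.9 to 57.9) in ST2 Tregs against 12.5 (9.42 to 16.4) in reference Tregs, no ST2 Treg had 2 of these genes, and 25 of the 42 UMIs were of Calca, 19 of them in 1 cell. Il17rb, the IL-25 receptor, gave 9 UMIs in 9 ST2 Tregs against 9 in 8 reference Tregs, 4.39-fold (1.54 to 12.5). Summed myeloid markers were 530 against 475 CPM and B cell markers 405 against 398 CPM. Cells with 2 myeloid markers were 62 of 164 ST2 Tregs, 264 of 787 reference Tregs and 18 of 196 other Foxp3 cells. Cells with 2 B cell markers numbered 15, 60 and 10. The part of myeloid and B cell markers in the results was not tested. Of 74 barcodes that the libraries share, 2 were tumor ST2 Tregs.

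Over the whole transcriptome the ST2 Tregs of the tumor library lay close to the reference Tregs. Of 5742 genes with at least 100 UMIs over both groups, 90% had log2 ratios between -0.51 and 0.40 around a median of -0.04. At least 1.5-fold higher in ST2 Tregs were 96 genes, a background of 1.67%, and at least 1.5-fold lower were 204, a background of 3.55%. The numbers lean on thinly counted genes: with at least 300 UMIs 20 genes were higher and 30 lower. Reference Tregs held 4304537 UMIs and ST2 Tregs 980855, so a gene high in the reference met the summed minimum more easily. The counts of higher and lower genes are therefore not on equal terms, and lower genes such as Ccnb1ip1 passed through the reference. Named below are the 12 genes whose interval lay furthest above 1 and the 12 whose interval lay furthest below, which are extremes picked from these same cells and therefore a description.

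**Figure D1:**
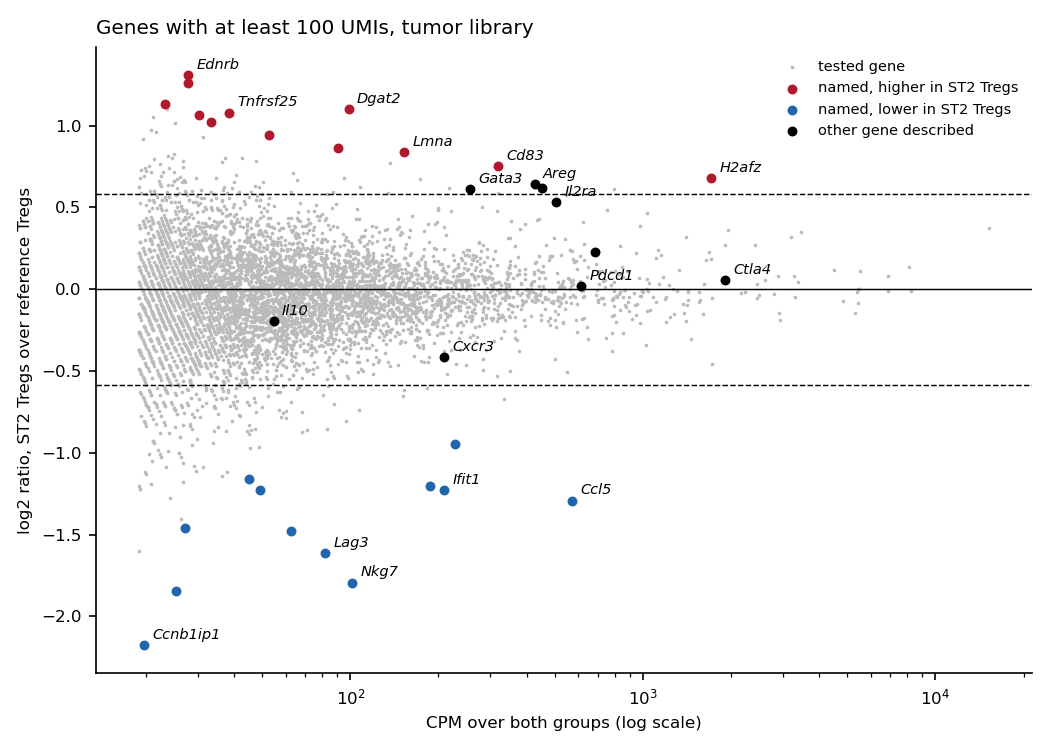
Each point is 1 of the genes with at least 100 UMIs in tumor ST2 and reference Tregs together, with its CPM over both groups (log axis) and the log2 ratio of ST2 Tregs over reference Tregs; dashed lines mark 1.5-fold. Most genes lie between the lines, Ccl5, Nkg7 and Lag3 stand apart below at log2 ratios of -1.29, -1.79 and -1.61, and Dgat2 and Ednrb stand above at 1.10 and 1.31.

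Areg, the amphiregulin gene, stood at 603 CPM (555 to 653) in tumor ST2 Tregs, 386 (368 to 405) in reference Tregs and 71.0 (54.4 to 91.0) in other Foxp3 cells, a ratio of ST2 to reference Tregs of 1.56 (1.42 to 1.71). Its UMIs were concentrated, with 86 of 164 ST2 Tregs carrying any and 1 cell carrying 64, and the ratio was 1.43 without the top cell of each group. Gata3, the transcription factor of tissue Tregs and Th2 cells, stood at 357 CPM (320 to 396), 233 (219 to 248) and 118 (96.2 to 143), a ratio of 1.53 (1.35 to 1.73). Both genes therefore fell in the order ST2, reference and other Foxp3 cells with intervals that did not overlap, while their ratios sat just above 1.5 and dropped under it in some alternatives, Areg to a log2 ratio of 0.34 without cycling cells and Gata3 to 0.42 with a reference of Klrg1 cells only.

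Dgat2 and Pparg, genes of lipid storage, differed more. Dgat2 (ENSMUSG00000030747, chromosome 7, 99153663 to 99182713), which makes triglyceride, stood at 174 CPM (149 to 203) in ST2 Tregs, 81.3 (73.0 to 90.3) in reference Tregs and 20.6 (12.2 to 32.6) in other Foxp3 cells, 2.14-fold higher (1.78 to 2.58) than in the reference. A Dgat2 UMI was present in 72 of 164 ST2 Tregs and 173 of 787 reference Tregs. Pparg, the nuclear receptor that drives the fat-tissue Treg program, was rare, with 22 UMIs in 12 ST2 Tregs against 18 UMIs in 18 reference Tregs and 0 in other Foxp3 cells, a ratio of 5.36 (2.75 to 10.6). It fell under the minimum of 100 UMIs, yet its interval had the highest lower bound of 1408 genes with 20 to 99 UMIs and a UMI in at least 10 ST2 Tregs, followed by Ccr3, the eotaxin receptor, with 29 UMIs in 11 cells against 39 in 24 (3.26-fold, 1.95 to 5.41); both were looked at after their values were seen. Other lipid genes differed less, with ratios of 1.07 (0.84 to 1.35) for Plin2, a lipid droplet coat protein, 0.82 (0.59 to 1.12) for Fabp5, a fatty acid carrier, and 1.16 (1.01 to 1.32) for Dgat1, the other triglyceride-forming enzyme.

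Of 19 tissue Treg and repair genes tested, 3 were at least 1.5-fold higher in tumor ST2 Tregs (Areg, Gata3, Dgat2) and 0 lower, 14 were above 1 and the list's median log2 ratio was 0.28, against -0.04 over all genes tested. Rora, a transcription factor of tissue Tregs, had a ratio of 1.35 (1.22 to 1.48), Batf, which opens the tissue Treg program, 1.26 (1.09 to 1.45), and Itgae, the epithelium-binding integrin, 1.25 (1.05 to 1.47). Il10, the anti-inflammatory cytokine, gave 48 UMIs against 241 and a ratio of 0.87 (0.63 to 1.20), and Maf, a factor that promotes Il10, 0.75 (0.62 to 0.90). The 3 genes that reached 1.5-fold thus stood beside others of the list at or below 1.

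Most IL-33 signalling genes were present at similar levels, with Nfkbiz and, less so, Nfkbia higher in ST2 Tregs. The activity of NF-kappa-B was not measured. Il33 itself had 0 UMIs in both groups. Il1rap, the partner chain of ST2, was detected in only 2 ST2 Tregs and 20 reference Tregs (2 against 20 UMIs, 0.44, 0.05 to 1.81). Its direction could not be read in 2 alternatives, where too few UMIs were left. The adaptors did not differ beyond counting error, with ratios of 1.19 (0.90 to 1.55) for Myd88, 0.91 (0.52 to 1.5) for Irak4 and 0.98 (0.71 to 1.34) for Traf6. Nfkbiz, which encodes the nuclear I-kappa-B-zeta induced by IL-1 family receptors, stood at 632 CPM against 411 and 239 in other Foxp3 cells, a ratio of 1.54 (1.40 to 1.68), and Nfkbia, the feedback inhibitor of NF-kappa-B, at 4193 against 3292 CPM, a ratio of 1.27 (1.23 to 1.32). Of the 19 genes of the pathway tested, Nfkbiz was the 1 that reached 1.5-fold, 0 were lower by as much, 12 were above 1 and the median log2 ratio was 0.17.

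**Figure D2:**
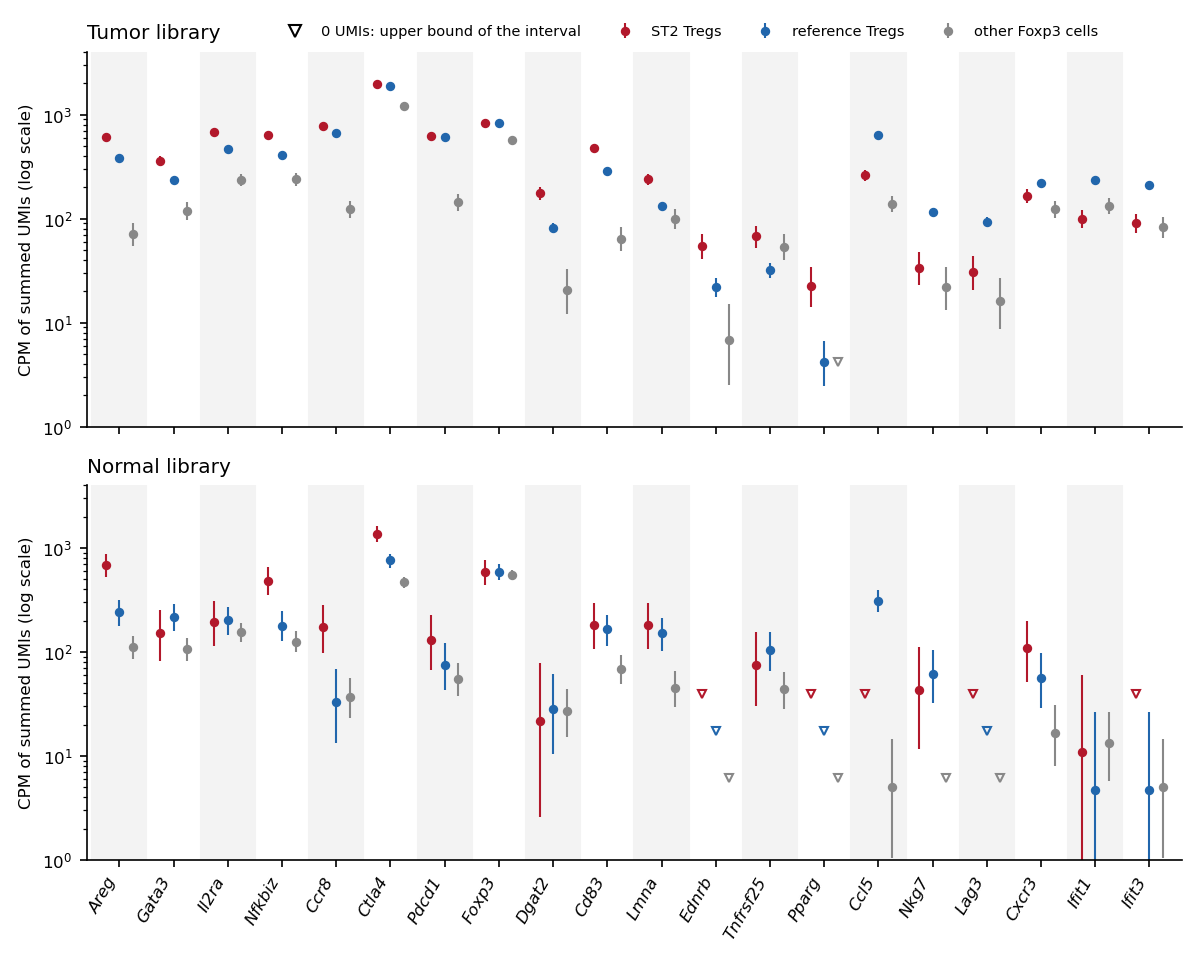
CPM of summed UMIs (log axis, bars are 95% exact Poisson intervals) of 20 genes in ST2 Tregs, reference Tregs and other Foxp3 cells of the tumor library (top) and the normal library (bottom); open triangles mark groups with 0 UMIs. In the tumor library Areg (603, 386 and 71.0 CPM) and Dgat2 (174, 81.3 and 20.6 CPM) step down over the groups, while Ccl5 is highest in reference Tregs (641 CPM) and Ctla4 (1973 and 1897 CPM) is level between ST2 and reference Tregs.

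Among surface receptors, Tnfrsf25, the TNF-family receptor DR3 whose engagement expands Tregs, stood at 67.3 CPM (52.0 to 85.6) in ST2 Tregs against 31.8 (26.7 to 37.6), a 2.11-fold difference (1.55 to 2.86), although other Foxp3 cells had 53.8 (39.5 to 71.5). Ednrb, an endothelin receptor, was 2.47-fold higher (1.73 to 3.5, 53 against 94 UMIs), Ltb4r1, the leukotriene B4 receptor, 1.82-fold (1.48 to 2.22) and Cd83, an activation marker, 1.69-fold (1.51 to 1.88). Il2ra, the high-affinity chain of the IL-2 receptor, stood at 676 CPM (625 to 729) against 467 (447 to 488), a ratio of 1.45 (1.32 to 1.58). Of 12 TNF family genes 1 was at least 1.5-fold higher, Tnfrsf25, and 0 lower, with Tnfrsf4 and Tnfrsf18, the receptors OX40 and GITR, at ratios of 0.96 (0.91 to 1.01) and 0.94 (0.89 to 1.00). ST2 Tregs thus carried more DR3 transcript than the reference, but not more of OX40 or GITR.

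The remaining genes named by the rule on the higher side were Nebl, a muscle-type actin-binding protein, 2.40-fold (1.68 to 3.40), Tnfrsf10b, the death receptor for TRAIL, 2.19-fold (1.47 to 3.23), Acod1, which makes itaconate, 2.09-fold (1.47 to 2.94), Usb1, an RNA-processing enzyme, 2.03-fold (1.45 to 2.81), Dusp14, a phosphatase, 1.92-fold (1.47 to 2.49), Lmna, a nuclear lamin, 1.79-fold (1.53 to 2.09), and the histone gene H2afz, 1.60-fold (1.53 to 1.68). The UMIs of Acod1 lay in 16 ST2 Tregs and 42 reference Tregs. For H2afz 1 ST2 Treg supplied 203 of 2420 UMIs, and without the top cell of each group its ratio was 1.49. Lmna had a log2 ratio of 0.32 among cells of 3000 to 8000 UMIs, against 0.84 over all cells. Of 11 AP-1 and dissociation stress genes, which tissue digestion can raise, 2 were at least 1.5-fold higher, Fosb (1.61, 1.31 to 1.96) and Atf3 (1.76, 1.16 to 2.61), 0 were lower and the median log2 ratio was 0.12; their part in the other differences was not tested. Of 8 cell cycle genes tested, 1 was at least 1.5-fold higher (Birc5, 28 against 74 UMIs, ratio 1.66, 1.03 to 2.60) and 0 lower. Of the 8, 5 were above 1, and the median log2 ratio was 0.28, from -0.33 to 0.32 over the alternatives.

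On the other side stood genes of cytotoxic and Th1 cells. Nkg7, a cytotoxic granule protein, had 33.6 CPM (23.2 to 47.2) in ST2 Tregs, 117 (107 to 127) in reference Tregs and 21.7 (13.1 to 34.0) in other Foxp3 cells, so ST2 Tregs were 3.47-fold lower (2.44 to 5.09) than the reference and close to other Foxp3 cells. Ccl5, a chemokine of effector T cells, had 262 CPM (231 to 296), 641 (618 to 666) and 138 (115 to 166), 2.45-fold lower (2.15 to 2.79), with a UMI in 51 of 164 ST2 Tregs and 365 of 787 reference Tregs. Lag3, an inhibitory receptor, had 30.6 CPM (20.6 to 43.7), 93.6 (84.7 to 103) and 16.0 (8.76 to 26.9), 3.06-fold lower (2.11 to 4.60). Of the 10 Th1 genes tested, Nkg7, Ccl5 and Tbx21, the Th1 master factor, were at least 1.5-fold lower, Il18rap was higher (1.55-fold, 1.02 to 2.32), and the median log2 ratio was -0.18. Tbx21 had 9 against 91 UMIs, a ratio of 0.43 (0.19 to 0.86), and its target Cxcr3, the receptor for interferon-induced chemokines, a ratio of 0.75 (0.63 to 0.89).

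Some interferon-response genes were lower as well. Of 21 tested, 5 were at least 1.5-fold lower in tumor ST2 Tregs, 0 were higher by as much, 18 lay below 1 and the median log2 ratio was -0.22. The 5 were Ifit1, 99.9 CPM (81.1 to 122) against 234 (220 to 249), 2.34-fold lower (1.90 to 2.91), Ifit3, 2.30-fold lower (1.85 to 2.90), Ifit3b, 2.24-fold lower (1.44 to 3.64), Mx1, 2.79-fold lower (1.85 to 4.38), and Usp18, with a ratio of 0.55 (0.40 to 0.75); the first 4 encode antiviral effectors and Usp18 restrains interferon signalling. Isg15, an abundant ubiquitin-like gene of the same response, had a ratio of 0.93 (0.84 to 1.03). The difference was therefore largest for a few effectors and not distinguishable for Isg15. Summed over the 21 genes, tumor ST2 Tregs had 8893 CPM (8708 to 9082) against 10259 (10164 to 10355). Within the tumor ST2 Tregs, the sum was 9994 CPM (9686 to 10309) in the 61 cells with 2 or more Il1rl1 UMIs. It was 8141 CPM (7911 to 8376) in the 103 cells with 1 Il1rl1 UMI. The interval of the 61 cells overlapped that of the reference. In the normal library the sums of ST2 and reference Tregs had the opposite order, with 4218 CPM (3810 to 4658) against 3148 (2914 to 3396). Single genes were mixed there: of 6 tested, 3 lay above 1 and 3 below, with a median log2 ratio of -0.01. Ifi27l2a alone supplied 267 of the 390 UMIs of normal ST2 Tregs and 4797 of the 8723 of tumor ST2 Tregs.

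The serine protease inhibitors Serpina3f and Serpina3g were 3.59-fold (1.77 to 8.49, 8 against 126 UMIs) and 1.93-fold lower (1.60 to 2.34). Ccnb1ip1 was 4.51-fold (1.87 to 14.2, 5 against 99 UMIs), Zbtb21 2.76-fold (1.49 to 5.65) and Chchd10 2.34-fold lower (1.52 to 3.76). Several Treg genes were also lower, with 2 of 14 identity genes at least 1.5-fold lower and 0 higher. They were Socs2, an inhibitor of cytokine signalling, at a ratio of 0.57 (0.43 to 0.75), and Entpd1, the ectoenzyme CD39, at 0.60 (0.41 to 0.84). Lrrc32, which presents latent TGF-beta on Tregs, had a ratio of 0.70 (0.55 to 0.88).

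Checkpoint and effector genes were read next. Pdcd1, which encodes PD-1, did not differ beyond counting error (622 against 614 CPM, ratio 1.01, 0.93 to 1.11), nor did Ctla4 (1.04, 0.99 to 1.09), while Tigit, with a ratio of 0.79 (0.73 to 0.85), and Lag3 were lower. Of 11 inhibitory receptors 0 were at least 1.5-fold higher and 2, Lag3 and Cd96, lower, with a median log2 ratio of 0.02. Of 11 effector molecules 3 were higher, Areg and the cysteine protease inhibitors Ctla2a (1.53, 1.43 to 1.64) and Ctla2b (1.51, 1.17 to 1.94), 0 were lower, and the median log2 ratio was 0.24. Gzmb, the protease granzyme B, had a ratio of 1.18 (1.08 to 1.29), but 1 ST2 Treg held 185 of its 633 UMIs and without the top cell of each group the ratio was 0.87. Without those cells Ctla2a and Ctla2b had ratios of 1.49 and 1.37.

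Among chemokine receptors, Ccr6, the receptor for CCL20, was 1.58-fold higher in ST2 Tregs (1.18 to 2.08, 70 against 195 UMIs). Ccr8, the receptor of tumor and tissue Tregs, stood at 778 CPM (724 to 835) against 664 (640 to 689) and 122 in other Foxp3 cells, a ratio of 1.17 (1.08 to 1.27). It separated ST2 and reference Tregs from other Foxp3 cells far more than from each other. Th2 cytokines were at 0, since Il4, Il5, Il13 and Il9 had no UMI in either group, and 3 counts would have been 3.06 CPM in ST2 Tregs.

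**Figure D3:**
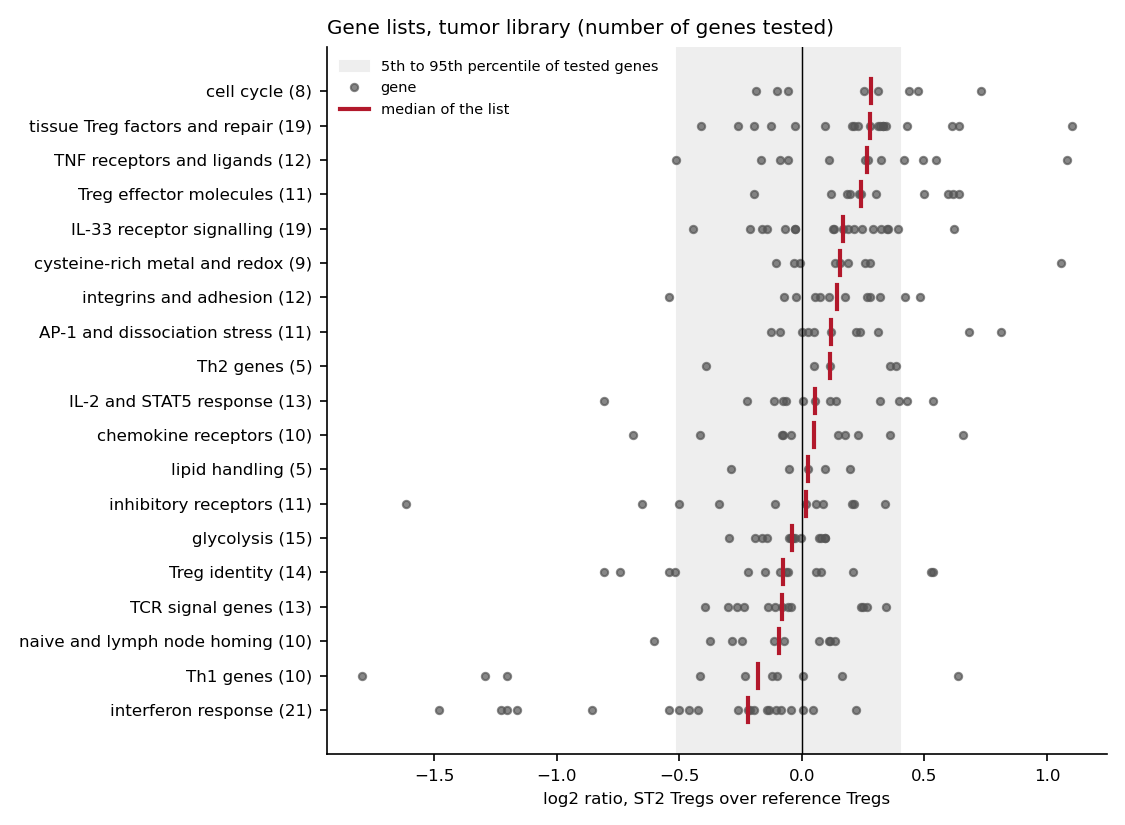
Log2 ratios (ST2 Tregs over reference Tregs, tumor library) of the genes of each list with at least 100 UMIs, 1 point per gene; red bars are list medians and the grey band holds 90% of all genes tested. Tissue Treg genes and cell cycle genes each centre at 0.28 and interferon and Th1 genes at -0.22 and -0.18, all inside the band from -0.51 to 0.40.

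Shares of cells at equal depth gave the same picture for most of these genes. Thinned to 2400 UMIs, with 8 ST2 and 39 reference Tregs left out as shallower, 28.2% of ST2 Tregs (21.3 to 36.0) and 13.9% of reference Tregs (11.5 to 16.6) had a Dgat2 UMI, 54.5% (46.3 to 62.5) and 35.2% (31.7 to 38.7) a Gata3 UMI, and 46.2% (38.2 to 54.3) and 30.6% (27.3 to 34.1) a Cd83 UMI. The order was opposite for Ccl5, at 21.2% (15.0 to 28.4) and 39.2% (35.7 to 42.8), for Cxcr3, at 20.5% (14.5 to 27.7) and 32.9% (29.5 to 36.4), and for Nkg7, at 3.85% (1.42 to 8.18) and 13.4% (11.0 to 16.0). Unthinned, 43.9% and 22.0% had Dgat2 and 31.1% and 46.4% had Ccl5. For Areg the thinned shares were 37.8% (30.2 to 45.9) and 27.9% (24.8 to 31.3), with overlapping intervals, so that more UMIs per positive cell were part of its difference. Among other Foxp3 cells, 3.41% had a Dgat2 UMI and 7.39% a Ccl5 UMI.

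**Figure D4:**
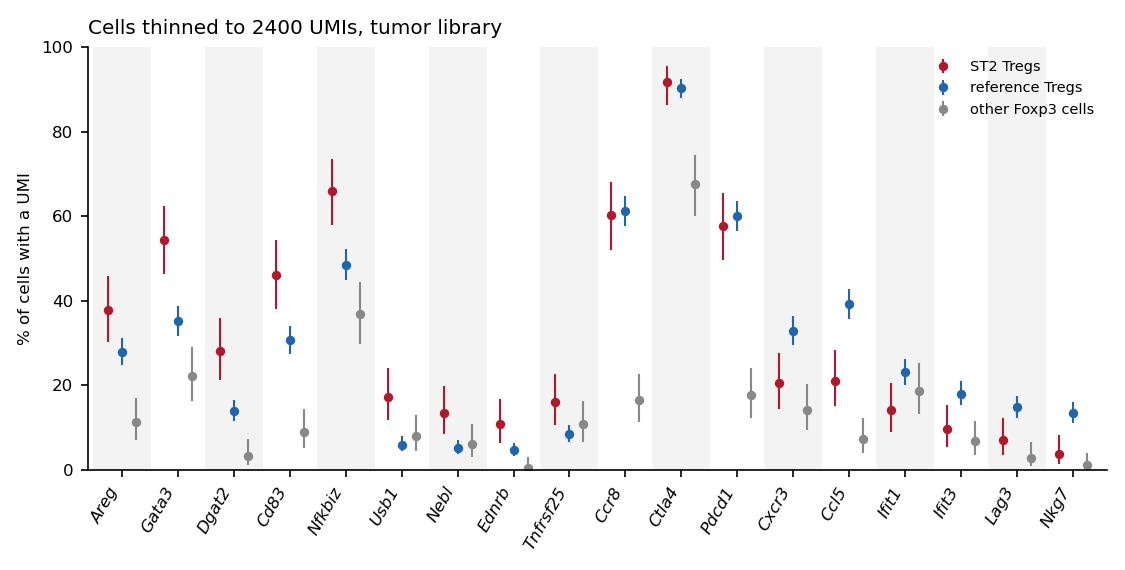
Share of cells of the tumor library with a UMI of each gene after thinning to 2400 UMIs, for ST2 Tregs, reference Tregs and other Foxp3 cells; bars are exact binomial 95% intervals. Gata3 (54.5% and 35.2%) and Dgat2 (28.2% and 13.9%) lie higher in ST2 than in reference Tregs, Ccl5 (21.2% and 39.2%) and Nkg7 (3.85% and 13.4%) lie lower, and Ctla4, Ccr8 and Pdcd1 overlap.

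ST2 Tregs varied among themselves. The 61 with 2 or more Il1rl1 UMIs had more Ednrb (2.41-fold, 1.35 to 4.44), Areg (1.48-fold, 1.25 to 1.74), Il2ra (1.37-fold, 1.17 to 1.59) and Pparg (3.90-fold, 1.45 to 12.2, 16 against 6 UMIs) than the 103 with 1 UMI, at median depths of 5641 and 5063 UMIs, while Gata3 and Dgat2 had ratios of 1.12 (0.90 to 1.40) and 1.12 (0.81 to 1.53). Some genes named as lower than in the reference were also higher in the cells with 2 or more, Lag3 2.93-fold (1.31 to 7.0, 20 against 10 UMIs), Mx1 2.60-fold (1.08 to 6.68, 16 against 9 UMIs) and Ifit3 1.57-fold (1.01 to 2.43). The 104 with Klrg1 had 2.02-fold more Areg (1.65 to 2.50) and 1.92-fold more Lmna (1.39 to 2.71) than the 60 without it, and they were deeper, at a median of 6017 against 4701.5 UMIs. The 57 with a Cxcr3 UMI had 5.52-fold more Nkg7 (2.34 to 15.1) and 2.09-fold more Gzmb (1.78 to 2.46), and ratios of 0.60 (0.42 to 0.84) for Dgat2 and 0.35 (0.18 to 0.64) for Il1r2, the decoy IL-1 receptor, against the 107 without Cxcr3. The 57 were deeper, at a median of 6411 against 4946 UMIs, and the 1 ST2 Treg with most Gzmb UMIs was not left out. Reference Tregs with and without Cxcr3 had 715 and 324 CPM of Gzmb and 141 and 84.3 of Nkg7. Their Dgat2 stood at 59.0 and 111 CPM and their Il1r2 at 72.9 and 80.0.

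Since ST2 Tregs held fewer Cxcr3 cells, the comparison was repeated within Cxcr3-positive and Cxcr3-negative cells, an alternative chosen after the data were seen. Ccl5 had ratios of ST2 to reference Tregs of 0.43 (0.36 to 0.52) and 0.46 (0.38 to 0.55), Lag3 of 0.20 (0.07 to 0.44) and 0.36 (0.22 to 0.54), Areg of 1.41 (1.21 to 1.65) and 1.59 (1.41 to 1.80), and Dgat2 of 2.11 (1.49 to 2.93) and 1.88 (1.49 to 2.36). Nkg7 had ratios of 0.47 (0.30 to 0.70) and 0.14 (0.06 to 0.30), and Ednrb of 4.42 (2.54 to 7.60) and 1.51 (0.93 to 2.40). The differences in Ccl5, Lag3, Areg and Dgat2 were thus present on either side of the Cxcr3 split.

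The TCR was not used to choose the cells apart from the limit on chains. Of 130 tumor ST2 Tregs with a paired receptor, 39 (30%, 22.3 to 38.7) belonged to a clone of at least 2 kept cells, against 233 of 620 reference Tregs (37.6%, 33.8 to 41.5), 10 of 146 other Foxp3 cells (6.85%, 3.33 to 12.2) and 95 of 4809 Foxp3-negative cells (1.98%, 1.60 to 2.41). ST2 and reference Tregs had overlapping intervals, and both were above the other cells. The most used beta V gene was TRBV19 in both, in 28 of 130 (21.5%, 14.8 to 29.6) and 135 of 620 (21.8%, 18.6 to 25.2).

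Most expanded clones with an ST2 Treg also held a reference Treg. Of 33 expanded clones with an ST2 Treg, 31 held a reference Treg and 7 a cell without a Foxp3 UMI. Only 5 of the 33 held 2 or more ST2 Tregs, so in the others a cell of another class was present by definition. Over all expanded clones there were 233 reference Tregs, 10 other Foxp3 cells and 95 Foxp3-negative cells. Reference Tregs were thus the most numerous possible sisters. The 63 sister cells were 52 reference Tregs, 2 other Foxp3 cells and 9 Foxp3-negative cells. Of the 5 clones whose CDR3 sequences are shown, clone 1 had 3 ST2 Tregs, 1 reference Treg and 2 Foxp3-negative cells, clone 2 had 2 ST2 Tregs, 3 reference Tregs and 1 Foxp3-negative cell, and clone 3 had 2 ST2 and 2 reference Tregs. Clones 4 and 5 had 2 ST2 Tregs each and 4 and 3 cells in all. Sister cells with the same receptor thus lay on both sides of the Il1rl1 threshold, which a missed UMI alone can also give.

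**Figure D5:**
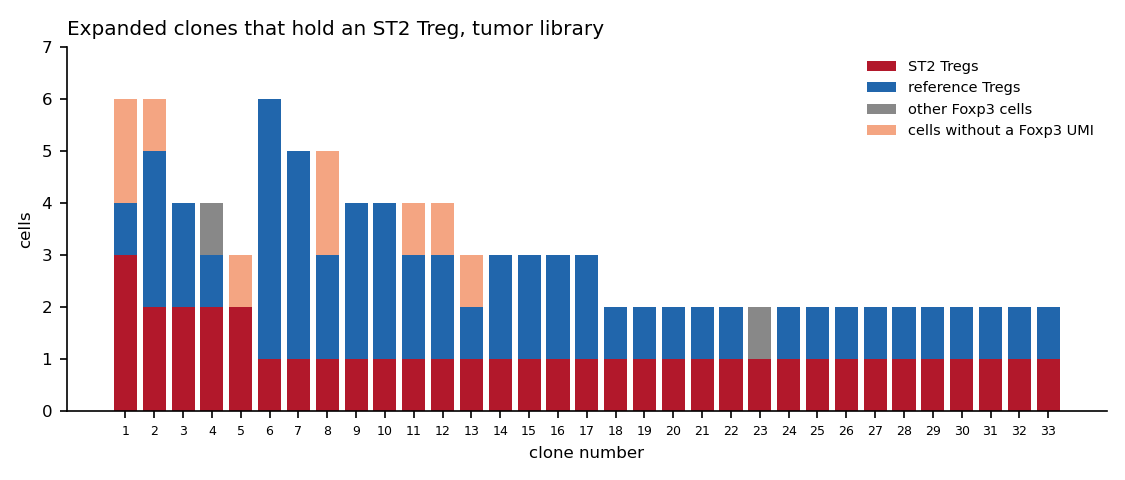
Cells of each of the 33 expanded clones of the tumor library that hold an ST2 Treg, stacked by class; clones are numbered by their ST2 Tregs and then by size. In 31 clones a reference Treg is present, and 5 clones hold 2 or 3 ST2 Tregs.

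The same genes were then read between sisters, that is, between 36 ST2 Tregs and the 52 reference Tregs of the same 31 clones, at median depths of 5328.5 and 4870 UMIs. The UMIs were summed over clones and not compared clone by clone, so clones with more cells weigh more. The 36 and 52 cells are part of the groups above, so the direction is no independent support. All 12 genes named as higher had ratios above 1 and all 12 named as lower had ratios below 1. Areg stood at 962 CPM in ST2 Tregs and 152 in their sisters, with a UMI in 18 of 36 and 12 of 52 cells, a ratio of 6.34 (4.48 to 9.19), or 5.21 without the top cell of each group, 1 of which held 64 of 196 UMIs. Gata3 had a ratio of 1.68 (1.21 to 2.35), Il2ra 1.90 (1.49 to 2.42), Dgat2 2.06 (1.13 to 3.86) and Tnfrsf25 4.04 (1.41 to 14.1). Ccl5 had a ratio of 0.37 (0.27 to 0.50), Ifit1 0.22 (0.08 to 0.50) and Cxcr3 0.43 (0.24 to 0.74). H2afz and Serpina3g, with ratios of 1.05 (0.92 to 1.18) and 0.98 (0.66 to 1.45), did not differ between sisters beyond counting error. The intervals of Ednrb, Nebl, Lmna, Ltb4r1, Dusp14, Usb1, Chchd10, Zbtb21 and Ifit3b also held 1, so these named genes were not distinguishable between sisters either.

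In the normal library 16 ST2 Tregs and 44 reference Tregs allowed only large differences to be seen, and the reference fitted its label less well. Of the 44, 41 entered with Tnfrsf9 and only 4 had Klrg1, and they kept 1767 CPM of Ccr7, the lymph node homing receptor, near the 1878 of other Foxp3 cells. Of 1390 genes with at least 30 UMIs, 316 were at least 1.5-fold higher in ST2 Tregs, a background of 22.7%, and 182 lower, a background of 13.1%. Against these high shares, 6 of 9 tissue Treg genes were higher and 0 lower (median log2 ratio 1.40, against 0.14 over all genes tested), and 9 of 10 naive and homing genes were lower (-1.31).

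Normal ST2 Tregs had 681 CPM of Areg (524 to 872) against 240 (179 to 316) in reference Tregs and 111 in other Foxp3 cells, a ratio of 2.83 (1.93 to 4.18). Rora had a ratio of 2.74 (1.82 to 4.15), Hopx, a regulator of Treg maintenance, 2.76 (1.86 to 4.12), Batf 3.06 (1.68 to 5.67), Tigit 3.26 (2.11 to 5.08), Nfkbiz 2.72 (1.73 to 4.30) and Ctla4 1.80 (1.41 to 2.28). Ccr7 was 8.17-fold (5.21 to 13.5) and Klf2, the quiescence factor that keeps T cells circulating, 3.58-fold lower (2.50 to 5.27). Gata3 did not follow, with 14 against 46 UMIs and a ratio of 0.698 (0.355 to 1.29). Ccl5 had 0 UMIs in the 16 ST2 Tregs, where 3 counts would be 32.4 CPM, and 311 CPM (241 to 396) in the reference, all from 3 cells. Areg, Rora, Nfkbiz and Batf were thus above the reference in both libraries. Tigit was above it here and below it in the tumor library (0.79, 0.73 to 0.85), a difference between libraries that was not tested, and the interval of Gata3 held 1. Myeloid markers, summed, were 335 CPM (228 to 476) in normal ST2 Tregs against 118 (76.2 to 174) in the reference, and their part was not tested.

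ST2 Tregs of the libraries were also set side by side, where tissue and library cannot be told apart. Of 1570 genes tested, tumor cells had at least 1.5-fold more of 362, a background of 23.1%, and as much less of 191, a background of 12.2%. Tumor ST2 Tregs held 980855 UMIs and normal ones 92462, so genes high in tumor cells met the summed minimum more easily. Areg, Rora and Batf had tumor to normal ratios of 0.88 (0.68 to 1.17), 0.94 (0.71 to 1.26) and 0.84 (0.57 to 1.29), and all 3 intervals held 1. Of the genes of the rule, Il1rl1 had a ratio of 0.90 (0.61 to 1.38), Foxp3 of 1.42 (1.08 to 1.91) and Klrg1 of 0.95 (0.70 to 1.31).

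Of 3 inhibitory receptors tested 1, Pdcd1, was at least 1.5-fold higher in tumor ST2 Tregs and 0 were lower, with Ctla4 and Tigit at ratios of 1.45 (1.21 to 1.75) and 1.44 (1.09 to 1.93). Tnfrsf9 was 4.93-fold higher (3.40 to 7.45), Pdcd1 4.79-fold (2.72 to 9.33), Ccr8 4.50-fold (2.75 to 7.91), Il2ra 3.47-fold (2.18 to 5.90) and Gata3 2.36-fold (1.39 to 4.36). Plac8, with 529 UMIs in 66 tumor cells and 0 in the normal library, was at least 16.6-fold higher against a floor of 3 counts, Ccl5 (257 against 0) at least 8.08-fold and Penk, the enkephalin precursor made by some tissue Tregs (174 against 0), at least 5.47-fold. Ctla2a was 14.6-fold (7.07 to 36.4) and Ly6a, the activation antigen Sca-1, 11.1-fold higher (6.19 to 22.3). Of 13 interferon genes 12 were higher and 0 lower (median log2 ratio 1.71), with Isg15 at 5.63-fold (2.84 to 13.1). Dgat2 had 2 normal UMIs and was 8.06-fold higher (2.20 to 67.1).

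Higher in normal ST2 Tregs were Itgb1, the beta-1 integrin, 7.77-fold (5.68 to 10.6), Cdc25b, a cell cycle phosphatase, 6.65-fold (4.41 to 9.93), S1pr1, the receptor for tissue egress, 3.54-fold (2.24 to 5.44), Nrp1, a semaphorin receptor of Tregs, 3.5-fold (2.21 to 5.37), and Klf2, 2.86-fold (1.90 to 4.21). Itgb1 had 74 UMIs in 14 of 16 normal cells and 101 in 48 of 164 tumor cells, so its difference was spread over cells.

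The start of Il1rl1 was read for GATA words because Gata3 was among the genes higher in tumor ST2 Tregs. The RefSeq table used here holds windows around 2 starts on GRCm38.p6, both inside the annotated span of the gene, and the window with more matches, 250 bases before to 50 after the start at chr1:40429320-40429619 on the plus strand, is shown with matches in capitals. A match was the word GATAA or the word GATAG with an A or a T in front of it, on either strand.
Il1rl1: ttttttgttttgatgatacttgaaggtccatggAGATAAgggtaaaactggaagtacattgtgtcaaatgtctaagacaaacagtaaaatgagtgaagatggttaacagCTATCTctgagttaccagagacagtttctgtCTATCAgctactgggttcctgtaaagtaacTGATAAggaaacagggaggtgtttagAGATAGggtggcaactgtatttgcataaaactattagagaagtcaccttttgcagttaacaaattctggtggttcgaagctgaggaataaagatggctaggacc
It held 5 matches. Of 32851 windows of the same length 18 held 5 or more (0.0548%) and 29.8% held at least 1. The window of the other start, at chr1:40439379-40439678, held 1. A match is a stretch of letters and not a bound site, and the counts do not tell which start was used.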

How the data were processed

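The deposited matrices held raw UMI counts per gene and barcode, from Cell Ranger on mm10 per the submitters' processing notes, version 3.1.0 per the file headers. The deposited contig tables gave TCR chains and other annotations per the file headers. Barcodes with at least 500 genes, under 10% mitochondrial UMIs, at most 2 productive alpha and at most 1 productive beta chain were kept, 7135 of 7788 and 7082 of 7745. The chain limits also served to remove doublets, and no doublet caller was run. Counts were summed per group and scaled to CPM, with exact Poisson, conditional ratio and Clopper-Pearson intervals at 95% (Python 3.11.15, scipy 1.17.1). Ratio intervals were checked on independent simulated Poisson counts, which do not hold the clustering of UMIs within cells. Genes needed 100 UMIs (tumor and between libraries) or 30 (normal), and 1.5-fold was counted as different. The minimum applied to the UMIs of both groups summed, so genes high in the group with more UMIs met it more easily. The cell groups share 1 library, and no test was run.

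Members, gene lists and the rule for named genes were chosen with earlier results of these data known. The rule takes the 12 highest lower bounds and 12 lowest upper bounds of the ratio in the tumor library among genes with a UMI in at least 10 cells of the higher group, without the 4 genes of the selection, receptor, immunoglobulin, mitochondrial, ribosomal, hemoglobin and sex-linked marker genes, beside a fixed set of 13 genes and list members. Alternatives changed the threshold, reference, depth, scaling, cell filters and clone rule. A clone was a beta chain with its leading alpha chain, by V, J and CDR3 nucleotides. Coordinates and promoters are from RefSeq tables on GRCm38.p6, where 366 of 366 genes used matched. Results on some genes are not reported here.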

Additional observations from a re-analysis of the deposited data

How the results depend on the processing

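Ratios of 45 genes, those named by the rule, the fixed set and a few others, were recomputed under 16 alternatives. Many other genes described above, such as Pparg, Tigit and Gzmb, were not recomputed. Il1rap had a log2 ratio of -1.19. With members of at least 2 Il1rl1 UMIs it had 0 UMIs in ST2 Tregs, and the value of 0.70 came from a floor of 3 counts. The value of 1.85 after thinning, with at most 2 UMIs in ST2 Tregs, gives no direction either. Klrg1, a gene of the rule, turned from 0.56 to -0.43 with a reference of Klrg1 cells, and Foxp3, Ctla4, Pdcd1, Il10, Isg15, Ccr2 and Il1r2, which lay between -0.19 and 0.06, also crossed 0 in at least 1 alternative. Counts of genes moved more. Against 96 genes at least 1.5-fold higher in tumor ST2 Tregs, there were 216 with at least 2 Il1rl1 UMIs, 63 with a reference of Klrg1 cells, 57 after thinning, 59 without Cxcr3 cells, 341 at a minimum of 30 UMIs and 20 at a minimum of 300 UMIs. Against 204 genes lower, there were 488 with at least 2 Il1rl1 UMIs, 97 with a reference of Klrg1 cells, 704 at a minimum of 30 UMIs and 30 at a minimum of 300 UMIs. In the normal library 316 genes higher became 64 at a minimum of 100 UMIs and 944 with all Foxp3 cells without Il1rl1 as reference, and 182 lower became 20 and 801. Fewer or more genes were tested under other minimums; for the remaining settings the cause was not tested. The tumor share of Foxp3 cells with Il1rl1 was 8.79% after thinning, which removes UMIs. The expanded share of ST2 Tregs was 17.7% for clones of at least 3 cells, and that of reference Tregs was 41.8% with clones by beta chain alone, 20.6% for clones of at least 3 cells and 31.7% with all Foxp3 cells without Il1rl1 as reference.

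Il1rl1 was read from 1 UMI in most members, and ST2 cells whose Il1rl1 was missed stand in the reference or among other cells. With 16 normal members, 3 counts come to 32.4 CPM. Leaving out a library was not possible with 1 per tissue. No paired analysis of libraries was possible because each tissue has 1 library. Sister cells were not paired clone by clone, and no test was run.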

Other observations

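Cells with Il1rl1 but no Foxp3 UMI numbered 28 in tumor lung and 13 in normal lung. The comparison was added after the data were seen. The 28 had Gata3 near the level of the ST2 Tregs (308 against 357 CPM, ratio of ST2 Tregs to them 1.16, 0.83 to 1.65), but ST2 Tregs had 3.01-fold more Areg (2.03 to 4.64), 2.92-fold more Il2ra (2.03 to 4.37), 1.89-fold more Ikzf2 (1.40 to 2.61) and a ratio of 0.07 (0.03 to 0.15) for Cd40lg, the helper ligand. At a median of 3946.5 UMIs, missed Foxp3 in some of the 28 cannot be told apart from its absence. In the normal library the 13 cells had 863 CPM of Gata3 (650 to 1124) against 151 in ST2 Tregs, and 188 CPM of Ctla4 (97.3 to 329) against 1363.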
